A study of Mus musculus with 26 samples.

Results

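The steroid hormone receptors described here were the estrogen receptors *Esr1* and *Esr2*, the progesterone receptor *Pgr*, the glucocorticoid receptor *Nr3c1* and the mineralocorticoid receptor *Nr3c2*. They were chosen by their symbols, and all 5 were found among the 23337 genes counted in each sample. RNA had been sequenced from 2 regions of the epididymis, the initial segment (IS) and the caput, 5 WT and 5 ArKI mice each, and from the testis, 3 WT and 3 ArKI mice, which gave 26 samples. ArKI is the labels' name for a germline knock-in genotype, in a line made from targeted embryonic stem cells, so that every cell carries the change. IS and caput came from 5 mice of each genotype, but the labels do not say which pieces came from the same mouse. All mice were males of 3 months on a C57Bl/6N; 129 hybrid background and had received no treatment named in the labels. Every epididymal library carried the label of sequencing batch 2 and every testis library that of batch 1, so a difference between testis and epididymis cannot be told apart from one between batches. The comparisons asked whether the RNA of these receptors differs between the genotypes, and where along the tract these receptors are expressed.

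Steroid receptors are transcription factors that bind their hormone inside the cell, pair up and attach to short response elements in DNA. The glucocorticoid, mineralocorticoid and progesterone receptors share one such element, whereas the estrogen receptors recognise another one. In the male tract ESR1 is best known from the efferent ducts, where it is needed for the reabsorption of fluid that leaves the testis, and NR3C2 governs sodium uptake in absorptive epithelia.

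The bases before the RefSeq transcription starts of the 3 genes with the largest genotype or segment differences are shown because these are the places where response elements would be looked for first. Each run covers 200 bases, from 250 to 51 bases before a start, in RefSeq's GRCm38.p6 sequence and on the strand of the gene. Capitals mark CG dinucleotides.
Esr1, distal start, chr10:4611739-4611938, plus strand: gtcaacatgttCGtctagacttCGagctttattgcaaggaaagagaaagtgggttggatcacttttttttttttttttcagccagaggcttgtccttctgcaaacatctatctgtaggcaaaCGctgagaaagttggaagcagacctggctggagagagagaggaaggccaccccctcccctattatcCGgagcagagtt
Esr1, proximal start, chr10:4709908-4710107, plus strand: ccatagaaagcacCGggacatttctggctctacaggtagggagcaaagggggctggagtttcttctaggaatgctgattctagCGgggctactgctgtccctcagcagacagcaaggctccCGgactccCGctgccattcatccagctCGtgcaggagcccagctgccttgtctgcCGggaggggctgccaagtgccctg
Esr2, chr12:76177310-76177509, minus strand: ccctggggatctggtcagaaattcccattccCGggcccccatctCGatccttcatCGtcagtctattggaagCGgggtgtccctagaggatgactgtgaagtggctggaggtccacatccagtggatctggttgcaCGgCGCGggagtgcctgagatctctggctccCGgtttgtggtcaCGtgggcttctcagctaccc
Nr3c2, chr8:76902080-76902279, plus strand: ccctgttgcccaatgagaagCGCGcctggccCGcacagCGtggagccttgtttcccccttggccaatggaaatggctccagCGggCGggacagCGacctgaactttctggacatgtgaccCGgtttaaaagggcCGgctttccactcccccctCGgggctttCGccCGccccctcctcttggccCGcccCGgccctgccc
The *Nr3c2* window was the richest in GC of these, with 67.0% GC and 14 CG dinucleotides, while the distal *Esr1* window had 46.5% GC and 4. The median of 32851 RefSeq windows of this length was 51.5% GC and 4 CG dinucleotides. Neither the half-site AGAACA of the glucocorticoid, mineralocorticoid and progesterone receptors nor the half-site AGGTCA of the estrogen receptors occurred on either strand of these 4 windows or of the *Pgr* window. At least 1 AGAACA was held by 13.2% of all windows and at least 1 AGGTCA by 11.4%. The absence says only that these letters are not in these windows.

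All values below are counts scaled to a common library total (CPM), with TMM factors over all samples, and total counts per sample ranged from 4125768 to 21376604. Genes of different length are compared only as RPKM, CPM per kilobase of annotated exon. A gene was called where the adjusted p of edgeR's quasi-likelihood test was below 0.05, and since each sample is a piece of tissue, fewer cells of a type and less RNA per cell cannot be told apart. Of the 5 initial segment markers, *Spint4* had at most 3 counts in every IS sample and 7.24 to 1213 CPM in the WT caput, so it did not mark the IS here and varied widely between caput pieces. The sum of those 5 markers was 16210 to 17481 CPM in the WT IS, 11473 to 14101 CPM in the ArKI IS, which did not overlap with WT, and 467 to 2151 CPM in the WT caput. *Spint4*, with a mean of 435 CPM in the WT caput, is part of this sum. The caput marker *Rhox5* had 0 counts in every ArKI caput sample and 4.96 to 7.03 CPM in the WT caput.

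*Nr3c1*, on chromosome 18 (39410545 to 39519421 in GRCm38), had the highest mean level per length over all annotated exons in every group. In WT mice its RPKM was 6.60 ± 0.513 in the IS and 6.27 ± 0.618 in the caput (SD, n = 5 each), and 1.98 ± 0.250 in testis (SD, n = 3). Among 47 nuclear receptors, the 5 members and 42 others, it ranked 12 in the WT IS, 10 in the WT caput and 18 in the WT testis.

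*Nr3c2*, on chromosome 8 (76899442 to 77245012), came next in the WT IS with 2.86 ± 0.220 RPKM (SD, n = 5), and its samples did not overlap those of the receptors above and below it. *Esr1*, on chromosome 10 (4611593 to 5005614), and *Esr2*, on chromosome 12 (76120419 to 76177259), had overlapping levels in the WT IS, 2.11 ± 0.216 and 2.11 ± 0.571 RPKM (SD, n = 5 each). In the WT caput the order changed to *Nr3c1*, *Esr2*, *Esr1* and *Nr3c2*, with 3.03 ± 0.413, 1.91 ± 0.324 and 0.930 ± 0.101 RPKM (SD, n = 5 each) for the latter 3, and no neighbours in this order overlapped. These places depend on the length used. Over the coding sequence alone or over the longest transcript, *Esr1* moved to the second place in both WT segments, since its annotated exons add up to 13661 bases while its longest transcript has 6339. In the ArKI IS *Esr1* came first over either of these lengths, and in the ArKI caput over the coding sequence.

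*Pgr*, on chromosome 9 (8899833 to 8968611), was last everywhere. It had 1 to 4 counts per sample in the IS, 1 to 13 in the caput and at most 1 in the testis, and no comparison retained it after the filter on low counts.

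**Figure D1:**
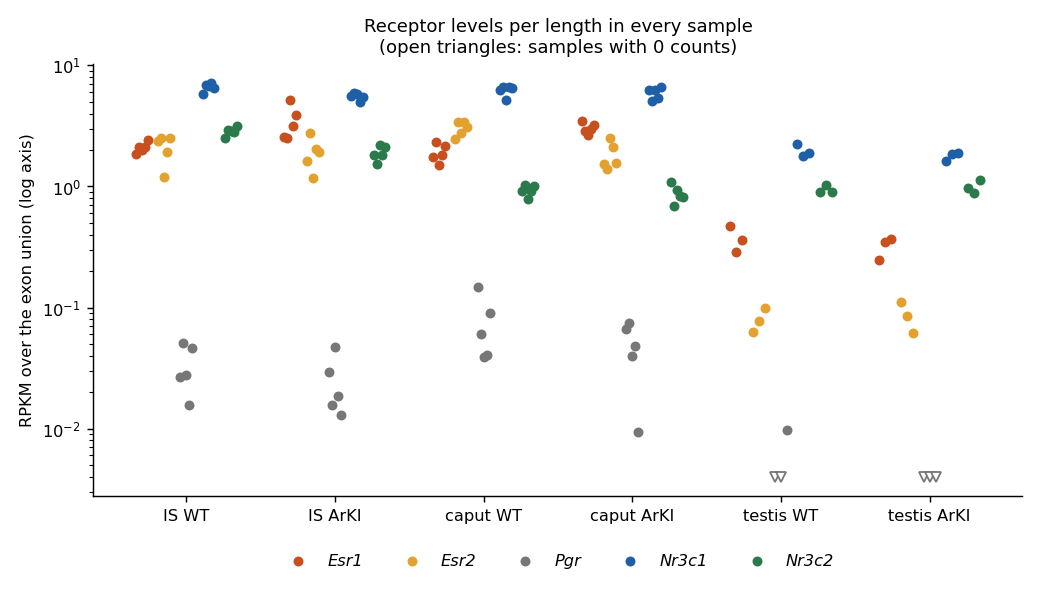
Levels of the 5 receptors per length (RPKM over the exon union, log axis) in each of the 26 samples, by group, where open triangles stand for samples with 0 counts. *Nr3c1* is the highest in all 6 groups, *Pgr* is the lowest, and *Esr2* drops from 1.17 RPKM or more in the epididymal samples to 0.110 or less in the testis.

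In the IS of ArKI mice *Esr1* was higher and *Nr3c2* and *Nr3c1* were lower than in WT mice, while *Esr2* was not called. Of the 4 receptors tested 3 were called (1 higher, 2 lower), where 29.6% of all 13434 genes tested were called, 15.0% higher and 14.6% lower. With the thresholds of the study, which also ask for a fold above 2, 0 receptors and 4.04% of all genes were called.

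*Esr1* had 25.4, 28.8, 27.3, 29.1 and 33.4 CPM in the WT IS and 34.8, 34.5, 71.0, 43.1 and 53.0 CPM in the ArKI IS. All ArKI samples were above all WT samples, replicate 3 stood far above the rest, and the nearest samples of the genotypes lay close together. The groups did not overlap for 20.2% of all genes tested. The log2 fold change was 0.72 (SE 0.21, adjusted p = 0.032 by edgeR). The call was lost when ArKI replicate 5 or any one of WT replicates 1 to 4 was left out (adjusted p from 0.062 to 0.072 by edgeR), and leaving out each of the 10 samples in turn gave log2 fold changes from 0.53 to 0.82.

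Some markers of the efferent ducts, which join the IS, moved with *Esr1*. Beside 15.0% of all genes called higher, 3 of the 5 tested among 6 such markers rose in the ArKI IS. These were the ciliary factor *Foxj1* (1.31, adjusted p = 0.018 by edgeR), the endocytic receptor *Lrp2* (1.43, adjusted p = 0.027) and the ciliary gene *Ccdc39* (1.54, adjusted p = 0.0022), each as log2 fold change. The call of *Lrp2* was lost without ArKI replicate 5 or any one of WT replicates 1 to 4 (adjusted p from 0.054 to 0.062 by edgeR), the same samples as for *Esr1*. The water channel *Aqp1* (0.13, adjusted p = 0.69) and the sodium-hydrogen exchanger *Slc9a3* (-0.06, adjusted p = 0.93) were not called. The 3 that rose were not confined to the IS. Mean *Lrp2* was 41.7 CPM in the WT IS and 33.9 CPM in the WT caput. *Foxj1* and *Ccdc39* had means of 27.7 and 9.48 CPM in the WT IS but 121 and 337 CPM in the WT testis. *Aqp1* and *Slc9a3* had their highest WT mean in the IS. The sum of the 6 markers ranged from 159 to 202 CPM in the WT IS and was 260, 172, 551, 288 and 350 CPM in ArKI replicates 1 to 5. The ArKI samples thus had the same order for the marker sum and for *Esr1*, with replicates 3 and 5 highest in both. Without those 2 samples the log2 fold change of *Esr1* dropped from 0.72 to 0.38 (SE 0.096, adjusted p = 0.0064 by edgeR), an exclusion chosen after the values had been seen. These are also the ArKI samples with the most *Esr1*, so leaving them out had to lower the fold and narrow the spread, whatever the markers, and neither the drop nor the p bears on the part of efferent duct tissue. The part of efferent duct tissue in the *Esr1* difference of the IS was not tested.

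**Figure D2:**
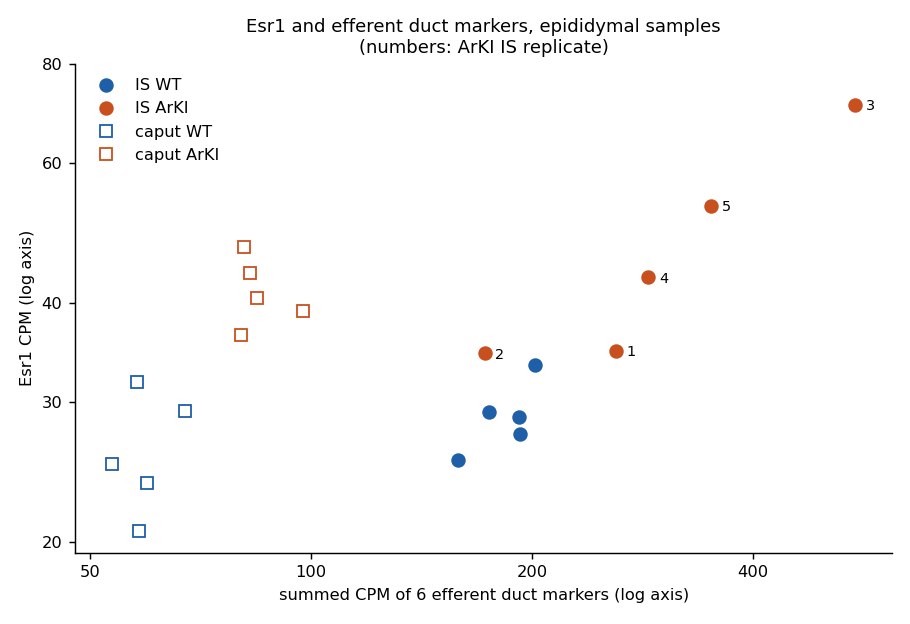
*Esr1* (CPM, log axis) against the summed CPM of 6 efferent duct markers (log axis) in the 20 epididymal samples, circles for the IS and squares for the caput, with the replicate numbers of the ArKI IS. ArKI IS replicates 3 and 5 are the highest on both axes, with 71.0 and 53.0 CPM of *Esr1*. The ArKI caput samples lie above the WT caput samples on both axes, with marker sums of 80.2 to 97.6 against 53.7 to 67.3 CPM.

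*Nr3c2* had 16.4, 19.1, 18.6, 18.1 and 20.3 CPM in the WT IS and 11.9, 10.002, 14.2, 11.7 and 13.8 CPM in the ArKI IS. The genotypes did not overlap, and the lowest WT sample was above the highest ArKI sample. The log2 fold change was -0.58 (SE 0.10, adjusted p = 0.00029 by edgeR), and it was called under all 19 alternatives run, with adjusted p up to 0.0013. The exons of *Nr3c2* overlap those of *Gm10649*, a gene on the opposite strand. The labels and the methods name different library kits, of which only one keeps the strand, so reads of *Gm10649* may be included.

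*Nr3c1* had 44.4, 53.1, 51.7, 54.6 and 49.6 CPM in the WT IS and 43.2, 45.1, 45.0, 38.3 and 41.8 CPM in the ArKI IS. WT replicate 1 lay within the ArKI range and the other WT samples lay above it. The difference was small, with a log2 fold change of -0.24 (SE 0.064, adjusted p = 0.0080 by edgeR), and was called under all 19 alternatives run.

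*Esr2* had 8.04, 8.46, 4.01, 6.44 and 8.54 CPM in the WT IS and 5.51, 9.34, 3.93, 6.89 and 6.43 CPM in the ArKI IS. Both ranges overlapped almost fully, and replicate 3 was lowest in each genotype. The log2 fold change was -0.15 (SE 0.22, adjusted p = 0.66 by edgeR).

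*Pgr* had 13 counts over the 5 WT and 8 over the 5 ArKI samples of the IS. The ratio of ArKI to WT was 0.711, with a 95% counting interval (Clopper-Pearson) from 0.255 to 1.85, which covers counting error only, and an exact two-sided permutation test of log2(CPM + 0.5) gave p = 0.36. The interval includes lower as well as higher levels in ArKI samples.

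Other cell type markers moved in the same samples, where 14.6% of all genes were called lower. All 5 smooth muscle markers fell in the ArKI IS, with a median log2 fold change of -0.98 and sums of 513 to 597 CPM in WT and 224 to 399 CPM in ArKI samples. Of 4 basal cell markers 3 fell, with *Krt5*, a keratin of basal cells, at -0.66 (adjusted p = 0.00039 by edgeR). Of the 4 initial segment principal cell markers tested, 3 fell in the ArKI IS, among them *Cst8* at -0.57 and *Lcn8* at -0.47 on the log2 scale (adjusted p = 1.7e-06 and 3.8e-06 by edgeR). The part of principal, muscle and basal cells in the lower *Nr3c1* and *Nr3c2* of the ArKI IS was not tested.

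In the ArKI caput *Esr1* was higher and *Esr2* lower than in WT, and neither *Nr3c1* nor *Nr3c2* was called. Of the 4 receptors tested 2 were called, where 27.7% of all 13726 genes tested were called, 13.7% higher and 14.0% lower. The thresholds of the study called 0 receptors and 4.98% of all genes.

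*Esr1* had 23.7, 31.8, 20.6, 25.0 and 29.2 CPM in the WT caput and 47.1, 39.1, 36.4, 40.5 and 43.6 CPM in the ArKI caput. The genotypes did not overlap, as for 19.9% of all genes tested, and no ArKI sample stood apart. The log2 fold change was 0.65 (SE 0.10, adjusted p = 0.00023 by edgeR), and it was called under all 19 alternatives run, with adjusted p up to 0.014. Of the 6 efferent duct markers 4 were tested, of which 1 rose and 1 fell. *Slc9a3* had at most 3 counts in every caput sample, *Foxj1* was between 0.923 and 3.42 CPM, *Ccdc39* fell (-1.05, adjusted p = 0.0023 by edgeR), *Lrp2* was not called (0.23) and *Aqp1* rose (0.91, adjusted p = 3.2e-07 by edgeR). The sum of the 6 was 53.7 to 67.3 CPM in WT and 80.2 to 97.6 CPM in ArKI samples, mostly *Lrp2* and *Aqp1*, and did not overlap between the genotypes. The part of efferent duct tissue in the *Esr1* difference of the caput was not tested.

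*Esr2* had 8.30, 11.5, 9.26, 11.4 and 10.5 CPM in the WT caput and 5.16, 4.70, 8.42, 7.08 and 5.23 CPM in the ArKI caput. The ranges touched, since the highest ArKI sample was just above the lowest WT sample. The log2 fold change was -0.71 (SE 0.15, adjusted p = 0.0021 by edgeR), called under all 19 alternatives run with adjusted p up to 0.016.

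*Esr1* and *Esr2* thus differed from WT in opposite directions in the caput. The ratio of *Esr1* to *Esr2* per length was between 0.540 and 0.705 in the WT caput and between 1.07 and 2.25 in the ArKI caput. In the IS this ratio ran from 0.778 to 1.68 in WT and from 0.912 to 4.45 in ArKI samples, and the genotypes overlapped.

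*Nr3c1* had 48.6, 50.9, 39.9, 51.5 and 50.1 CPM in the WT caput and 48.0, 39.1, 48.4, 41.4 and 51.1 CPM in the ArKI caput. The groups overlapped, with a log2 fold change of -0.08 (SE 0.078, adjusted p = 0.49 by edgeR). *Nr3c2* had 5.89, 6.72, 5.07, 5.89 and 6.53 CPM in WT and 6.99, 4.49, 6.04, 5.44 and 5.31 CPM in ArKI samples. These groups overlapped too, with a log2 fold change of -0.09 (SE 0.14, adjusted p = 0.69 by edgeR).

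*Pgr* had 31 counts over the WT and 18 over the ArKI samples of the caput, 13 of the former in WT replicate 1. The ratio of ArKI to WT was 0.544, with a 95% counting interval from 0.287 to 1.00, and the exact two-sided permutation test gave p = 0.29. The markers of smooth muscle and basal cells, which had fallen in the IS, were not called in the caput, 0 of 5 and 0 of 4. Sperm markers fell in both segments, 2 of 2 tested in the IS and 5 of 5 in the caput, beside 14.6% and 14.0% of all genes called lower. The part of sperm in the receptor values was not tested.

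**Figure D3:**
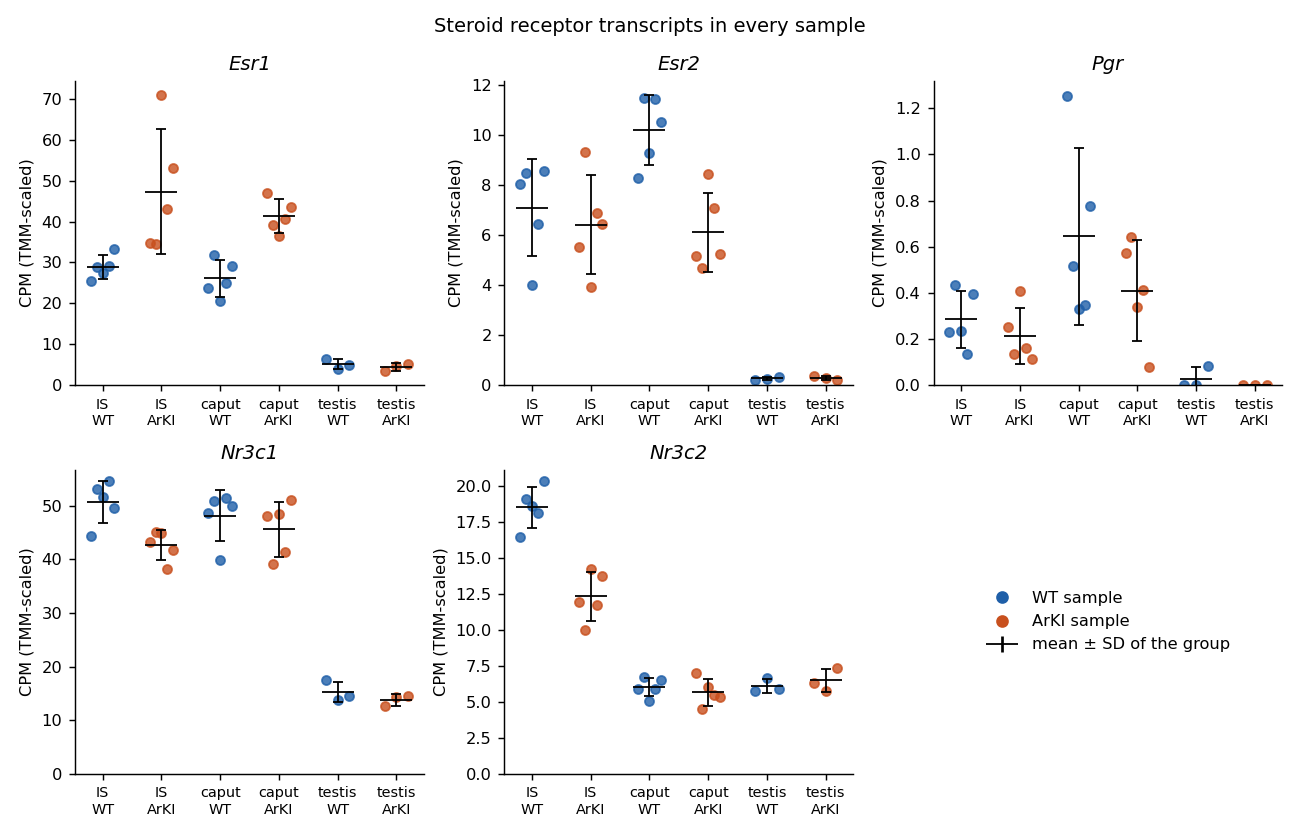
Each panel shows the CPM of 1 receptor in every sample, WT in blue and ArKI in orange, with the mean ± SD of each group in black. *Esr1* separates the genotypes in the IS and in the caput, *Nr3c2* separates them in the IS, and *Esr2* is lower in the ArKI caput with ranges that touch at 8.30 and 8.42 CPM.

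In the testis no receptor was called between the genotypes. Of the 3 receptors that passed the filter 0 were called by edgeR, and 0 had an unadjusted p below 0.05, where 1.96% of all 15838 genes tested were called. The study's thresholds called 0 receptors too, and 0.833% of all genes.

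*Esr1* had 6.41, 3.96 and 4.94 CPM in the WT and 3.35, 4.77 and 5.07 CPM in the ArKI testis, with a log2 fold change of -0.25 (SE 0.19, adjusted p = 0.63 by edgeR). *Nr3c1* had 17.4, 13.8 and 14.5 CPM in WT and 12.6, 14.3 and 14.5 CPM in ArKI samples (-0.18, SE 0.11, adjusted p = 0.55 by edgeR). *Nr3c2* had 5.78, 6.63 and 5.86 CPM in WT and 6.32, 5.75 and 7.37 CPM in ArKI samples (0.06, SE 0.15, adjusted p = 0.91 by edgeR). The genotypes overlapped for each of them, whereas 17.5% of all genes tested did not overlap. *Esr2* had 3 to 5 counts per sample in both genotypes (exact two-sided permutation p = 0.80), and *Pgr* had 1 count in all 6 samples together. With 3 samples against 3 this exact test cannot go below 0.10.

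**Figure D4:**
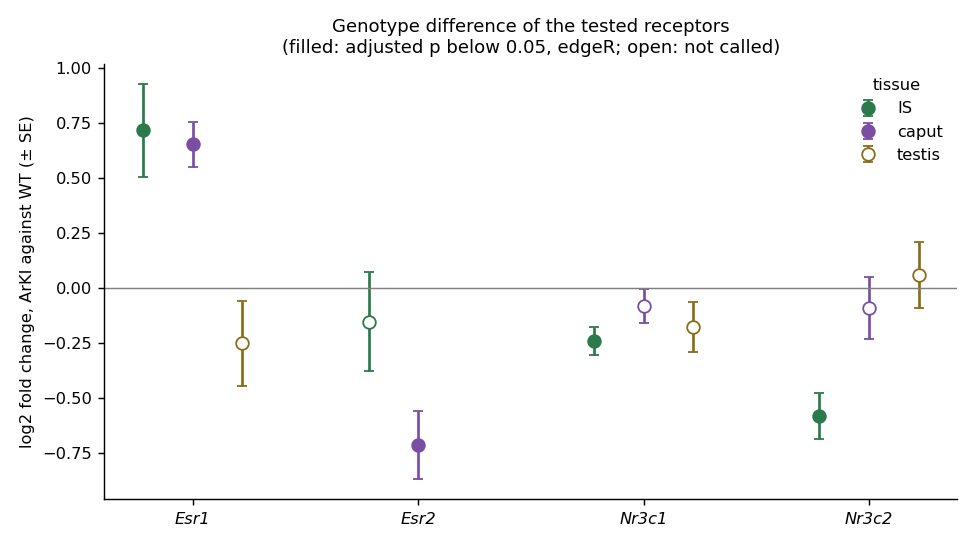
Log2 fold change of ArKI against WT with its standard error (vertical axis) for the 4 receptors that passed the filter, coloured by tissue, filled where the adjusted p of edgeR was below 0.05. *Esr1* lies at 0.72 and 0.65 in the IS and caput, *Esr2* at -0.71 in the caput and *Nr3c2* at -0.58 in the IS, and no testis value is filled.

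Whether the genotype difference itself differed between IS and caput was tested in 1 fit of the 20 epididymal samples. Only *Nr3c2* was called among the 4 receptors, where 15.1% of 14329 genes were, and the study's thresholds called 0 receptors and 3.1% of all genes. Its difference was less negative in the caput than in the IS by 0.49 on the log2 scale (SE 0.17, adjusted p = 0.046 by edgeR). The call was marginal, since it was lost in 19 of 27 alternatives, 14 of them among the 20 that left out 1 sample, with adjusted p from 0.026 to 0.11. *Esr2* had a difference of -0.56 (SE 0.29, adjusted p = 0.21 by edgeR), so a lower level in the ArKI caput and none called in the IS does not show that the segments differ. For *Esr1* this value was -0.07 (SE 0.24, adjusted p = 0.90) and for *Nr3c1* 0.16 (SE 0.11, adjusted p = 0.35), again by edgeR.

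Between the segments of WT mice *Nr3c2* showed the largest difference of the receptors, with 3.06-fold less in the caput than in the IS. Of 4 receptors tested 2 were called, where 69.4% of all genes were, and by the study's thresholds 1 receptor, *Nr3c2*, and 21.6% of all genes. The groups did not overlap for 56.7% of all genes. For *Nr3c2* the caput samples, 5.07 to 6.72 CPM, lay far below the IS samples, 16.4 to 20.3 CPM, with a log2 fold change of -1.62 (SE 0.11, adjusted p = 1.3e-12 by edgeR). *Esr2* was higher in the WT caput by 0.51 (SE 0.19, adjusted p = 0.022 by edgeR), with ranges that overlapped slightly, and without IS replicate 3, the lowest sample, it fell to 0.37 and was no longer called (adjusted p = 0.070 by edgeR). *Esr1* (-0.14, adjusted p = 0.49) and *Nr3c1* (-0.07, adjusted p = 0.43) were not called by edgeR. *Pgr* had more counts in the WT caput than in the WT IS, 31 against 13, a ratio of 2.24 with a 95% counting interval from 1.14 to 4.67 (exact two-sided permutation p = 0.048, which is unadjusted). The interval covers counting error only and not the spread between mice. Of the 31 caput counts 13 came from replicate 1, and the samples of the segments overlapped.

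In ArKI mice only *Nr3c2* was called between the segments, 1 of 4 tested, where 66.2% of all genes were. The samples of the segments did not overlap for 48.0% of all genes. For *Nr3c2* they did not either. It was lower in the caput, with 4.49 to 6.99 CPM against 10.002 to 14.2 CPM in the IS and a log2 fold change of -1.12 (SE 0.12, adjusted p = 5.4e-09 by edgeR). *Esr2* was not called, with a log2 fold change of -0.05 (SE 0.21, adjusted p = 0.86 by edgeR), nor were *Esr1* (-0.21, adjusted p = 0.28) and *Nr3c1* (0.09, adjusted p = 0.29) called.

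Between WT testis and WT epididymis the estrogen receptors and *Nr3c1* were far lower in the testis. All 4 receptors tested were called lower than in the IS, where 91.9% of all genes were called and 42.5% called lower, and 3 of 4 were called lower than in the caput, where 92.0% were called and 43.2% called lower. The samples of those pairs did not overlap, as for 89.6% of all genes between testis and IS and 89.9% between testis and caput. *Esr2* had the largest difference, with 10 counts over the 3 WT testis samples, a ratio to the WT IS of 0.0368 with a 95% counting interval from 0.0175 to 0.0686, and a ratio to the WT caput of 0.0261 (0.0124 to 0.0484). *Esr1* had log2 fold changes of -2.38 (SE 0.16) against the IS and -2.25 (SE 0.16) against the caput, with adjusted p = 9.5e-12 and 2.7e-11 by edgeR. *Nr3c1* had -1.63 (SE 0.098) and -1.57 (SE 0.098), with adjusted p = 9.2e-14 and 1.9e-13 by edgeR. Over all genes these fits had median log2 fold changes of 0.19 (testis and IS) and 0.16 (testis and caput).

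*Nr3c2* followed another order. Its level in the IS exceeded that in the testis, with a log2 fold change of testis against IS of -1.51 (SE 0.12, adjusted p = 1.5e-11 by edgeR), whereas testis and caput had 5.78 to 6.63 and 5.07 to 6.72 CPM and overlapped (0.10, SE 0.13, adjusted p = 0.48 by edgeR). Scaled by library size alone, the testis was lower than the caput as well (-0.29, adjusted p = 0.041 by edgeR). *Pgr* had 1 count in the WT testis, and its samples lay below those of either WT segment (exact two-sided permutation p = 0.036 each, unadjusted, the smallest this test allows).

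Over the 20 epididymal samples each receptor followed its own pattern. Among the 4 that passed the filter the most strongly related pair was *Esr1* with *Esr2*, at a Pearson r of -0.58 of log2(CPM + 0.5), and the other pairs lay between -0.28 and 0.24. These are descriptions over samples that share 4 groups and 1 sequencing batch. Of 14329 genes, those most like *Esr1* were *4930402H24Rik* (r = 0.90), *1600029D21Rik* (0.87) and the heat shock protein gene *Hsph1* (0.87). Those most like *Esr2* were the lysosomal galactosidase *Glb1* (0.87), the beta-defensin *Defb18* (0.86) and *Pld3* (0.84). For *Nr3c1* the values were lower, *Wdr7* (0.83), *2610002I17Rik* (0.79) and *Bche*, which encodes butyrylcholinesterase (0.77). For *Nr3c2*, whose pattern is largely the step between segments, *Arfgef1* (0.98), *Gramd1b* (0.98) and *Fryl* (0.98) led.

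Among 9 genes that set the amount of active hormone for these receptors, *Sult1e1* and *Hsd11b1* rose in both segments of ArKI mice. *Sult1e1*, the sulfotransferase that inactivates estrogens, went from 3.18 ± 0.622 to 69.9 CPM in the IS, from 6.15 ± 2.05 to 89.0 CPM in the caput (SD over the 5 WT samples) and from 18.2 ± 7.33 to 122 CPM in the testis (SD, n = 3), with log2 fold changes of 4.46, 3.83 and 2.70 (adjusted p = 3.6e-08, 9.8e-08 and 0.032 by edgeR). The testis call was lost without WT replicate 2 or any one of the 3 ArKI samples (adjusted p from 0.099 to 0.16 by edgeR), with log2 fold changes of 2.63 to 2.78 there. *Hsd11b1*, which regenerates active glucocorticoid, rose by 1.68 in the IS and 1.23 in the caput (adjusted p = 5.0e-07 and 1.4e-05 by edgeR). Its cofactor enzyme *H6pd* fell by 0.24 in the IS and rose by 0.35 in the caput (adjusted p = 0.00073 and 0.00043 by edgeR). Of the 9 genes of this list 3 were tested in the IS and all 3 were called, 2 of them upward, and 4 in the caput with 3 called, all upward. In the testis 1 of 5 was called. Over all genes 29.6%, 27.7% and 1.96% were called in IS, caput and testis. *Hsd11b2*, which protects the mineralocorticoid receptor from glucocorticoid, had 1.92 CPM in the WT and 2.79 CPM in the ArKI caput and was not called (adjusted p = 0.15 by edgeR).

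Of 18 genes known to respond to corticosteroids 6 rose and 0 fell in the ArKI IS, 5 rose and 0 fell in the caput, and 5 rose and 0 fell in the testis. Of all genes 29.6% were called in the IS (15.0% higher), 27.7% in the caput (13.7% higher) and 1.96% in the testis. Leydig cell markers moved in the same testis samples. Of these 2 of 5 were called, both higher, and the sum of the 5 was 640 to 864 CPM in WT and 1089 to 1142 CPM in ArKI samples. The 5 markers did not move alike. From WT to ArKI testis the mean of *Cyp17a1* went from 346 to 530 CPM and that of *Cyp11a1* from 161 to 311 CPM. *Star* went from 115 to 148 CPM, *Insl3* from 33.9 to 35.2 CPM and *Hsd3b6* from 106 to 89.4 CPM. The part of Leydig cells in the testis values of the corticosteroid-responsive genes and of *Sult1e1* was not tested. The medians of the corticosteroid-responsive genes were 0.11, 0.26 and 0.11, where the median of all genes was close to 0 in each tissue. *Zbtb16*, a zinc finger repressor that glucocorticoid induces in many tissues, rose by 1.57 in the IS and 2.04 in the caput (adjusted p = 3.7e-08 and 3.9e-10 by edgeR) and by 0.73 in the testis (adjusted p = 0.0083 by edgeR), and *Tsc22d3*, which encodes GILZ, by 0.29 and 0.65 (adjusted p = 0.0011 and 1.1e-06 by edgeR). *Cdkn1a*, the cell cycle inhibitor p21, rose by 0.52 in the IS, 1.00 in the caput and 0.51 in the testis (adjusted p = 0.0028, 1.3e-05 and 0.0057 by edgeR), the last no longer called without ArKI testis replicate 2 (adjusted p = 0.068 by edgeR). *Fkbp5*, a chaperone that lowers hormone binding by the glucocorticoid receptor, rose by 0.21 in the caput and 0.41 in the testis (adjusted p = 0.0064 and 0.0023 by edgeR) and had a value of -0.05 in the IS, which was not called. In the testis the lipocalin *Lcn2* rose by 2.58 and *Errfi1*, an inhibitor of the EGF receptor, by 0.72 (adjusted p = 2.2e-07 and 0.00011 by edgeR). The metallothioneins *Mt1* and *Mt2*, which bind metal ions, rose by 0.45 and 0.57 in the IS (adjusted p = 0.00087 and 0.00039 by edgeR). The kinase *Sgk1* and the clock gene *Per1*, both classical targets, were called in no tissue.

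Of 10 sodium transport genes that act downstream of the mineralocorticoid receptor, 8 were tested in the IS, where 5 rose and 1 fell, and 10 in the caput, where 5 rose and 2 fell. Over all genes 15.0% were called higher and 14.6% lower in the IS, and 13.7% and 14.0% in the caput. The median log2 fold change was 0.29 in the IS and 0.27 in the caput. *Scnn1b*, the beta subunit of the epithelial sodium channel, went from 2.67 to 12.03 CPM in the IS and from 0.523 to 3.93 CPM in the caput, with log2 fold changes of 2.18 and 2.87 (adjusted p = 1.1e-08 and 1.7e-06 by edgeR). Its WT caput level stands for only a few counts per sample. It thus passed the filter there largely through the ArKI samples, and neither that fold nor that p is independent of the filter. *Scnn1a*, the alpha subunit, rose by 0.39 and 0.46 (adjusted p = 0.00022 and 1.7e-06 by edgeR). *Nedd4l*, a ubiquitin ligase that removes the sodium channel from the membrane, rose by 0.16 in the IS, and *Atp1b1* rose by 0.67 in the caput (adjusted p = 0.0096 and 4.2e-07 by edgeR). *Nr3c2* itself was lower in the ArKI IS and not called in the caput, as given above. In the testis 0 of 8 genes of this list were called.

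Of 15 estrogen-responsive genes, a list that includes *Pgr*, 3 rose and 4 fell among 13 tested in the IS, 4 rose and 3 fell among 12 tested in the caput, and 2 rose and 0 fell among 11 tested in the testis, beside 29.6%, 27.7% and 1.96% of all genes called in either direction. *Igf1*, a growth factor, rose by 1.27 in the IS, 1.41 in the caput and 0.67 in the testis (adjusted p = 6.7e-06, 2.3e-05 and 0.00061 by edgeR). *Greb1*, which responds to estrogen in breast cells, was lower, at -0.72 (IS) and -1.15 (caput) on the log2 scale (adjusted p = 9.3e-07 and 4.4e-06 by edgeR). The carbonic anhydrase *Car2* rose by 0.56 in the IS (adjusted p = 1.6e-06 by edgeR), and the cyclin *Ccnd1* rose by 0.82 in the caput (adjusted p = 1.5e-08 by edgeR), as did *Aqp1*, given above. *Ctsd*, a lysosomal protease, was lower in the IS (-0.35, adjusted p = 2.3e-05 by edgeR) and higher in the testis (0.39, adjusted p = 0.0033 by edgeR), the latter no longer called without WT testis replicate 3 (adjusted p = 0.061 by edgeR), which leaves 1 call in the testis. The directions in this list were mixed, with a median of -0.01 in the IS and -0.02 in the caput.

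Of 12 chaperones of the receptors 3 rose and 1 fell in the IS and 3 rose in the caput, each by 0.27 or less on the log2 scale. They were *Dnajb1* (0.27, adjusted p = 0.00037), *Hsp90aa1* (0.21, adjusted p = 0.011), *Ptges3* (0.22, adjusted p = 0.046) and *Bag1* (-0.15, adjusted p = 0.020) in the IS, and *Fkbp5*, *Hspa8* (0.15, adjusted p = 0.013) and *Dnajb1* (0.15, adjusted p = 0.047) in the caput, all by edgeR. Leaving out single samples ended the call of *Ptges3* in 7 of 10 fits, of *Bag1* in 3 and of *Dnajb1* in the caput in 7. These counts and the next stand beside 29.6% of all genes called in the IS and 27.7% in the caput. Of the coactivators 3 of 17 tested in the IS and 1 of 18 in the caput were called. *Ncoa3* and *Ncoa1*, which bind receptors with hormone, were lower in the IS (-0.27 and -0.14, adjusted p = 0.00054 and 0.038 by edgeR), with the call of *Ncoa1* lost in 6 of 10 fits that left out 1 sample. *Ppargc1a*, a coactivator of mitochondrial genes, had 1.05 in the IS and -0.43 in the caput (adjusted p = 0.0012 and 0.021 by edgeR). Its caput call was lost without WT replicate 3 or 4 or ArKI replicate 4 and in 5 of 19 alternatives in all (adjusted p up to 0.12 by edgeR). Of 11 corepressors 3 were called in the IS and 2 in the caput. These were the histone deacetylase *Hdac3* (0.31, adjusted p = 1.3e-05), *Sin3a* (0.14, adjusted p = 0.027) and *Nrip1* (-0.19, adjusted p = 0.033) in the IS, and *Tle1* (0.36, adjusted p = 0.00038) and *Rere* (-0.18, adjusted p = 0.018) in the caput, all by edgeR. The call was lost in 5 of 10 fits without 1 sample for *Sin3a*, in 6 for *Nrip1* and in 1 for *Rere*. Without ArKI replicate 2 or WT replicate 4 of the IS both *Sin3a* and *Nrip1* lost it. Of 6 membrane steroid receptors tested, 2 were called in the IS and 3 in the caput, all lower. *Pgrmc1* had -0.25 in the IS and -0.69 in the caput (adjusted p = 0.00021 and 2.4e-05 by edgeR), *Paqr7* had -0.49 and -0.43 (adjusted p = 0.0020 and 0.0087 by edgeR), and *Paqr5* had -0.92 in the caput (adjusted p = 0.00011 by edgeR).

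Among 42 other nuclear receptors 28 were tested in the IS, where 4 rose and 2 fell, 27 in the caput, where 3 rose and 2 fell, and 31 in the testis, where 0 were called by edgeR. *Esrrb*, an orphan receptor related to the estrogen receptors, had at most 0.325 CPM in the WT IS and 1.76 to 4.33 CPM in the ArKI IS (adjusted p = 6.3e-07 by edgeR). It passed the filter on low counts through the ArKI samples alone, so its call and its p are not independent of that filter. Also in the IS *Ppara*, a fatty acid sensor, had a log2 fold change of -1.06 and *Esrrg*, an orphan receptor, one of 0.86 (adjusted p = 8.7e-06 and 0.00036 by edgeR). In the caput *Nr4a1*, an immediate early gene, had -0.63 and *Vdr*, the vitamin D receptor, 0.91 (adjusted p = 2.4e-05 and 0.0011 by edgeR). *Nr6a1* had -0.26 and *Rarg*, a retinoic acid receptor, 0.19 there (adjusted p = 0.015 and 0.035 by edgeR), with calls lost in 1 and 5 of the 10 fits that left out 1 sample. The shares called among these receptors, 6 of 28 and 5 of 27, and among the steroid receptors, 3 of 4 and 2 of 4, stand beside 29.6% and 27.7% of all genes.

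**Figure D5:**
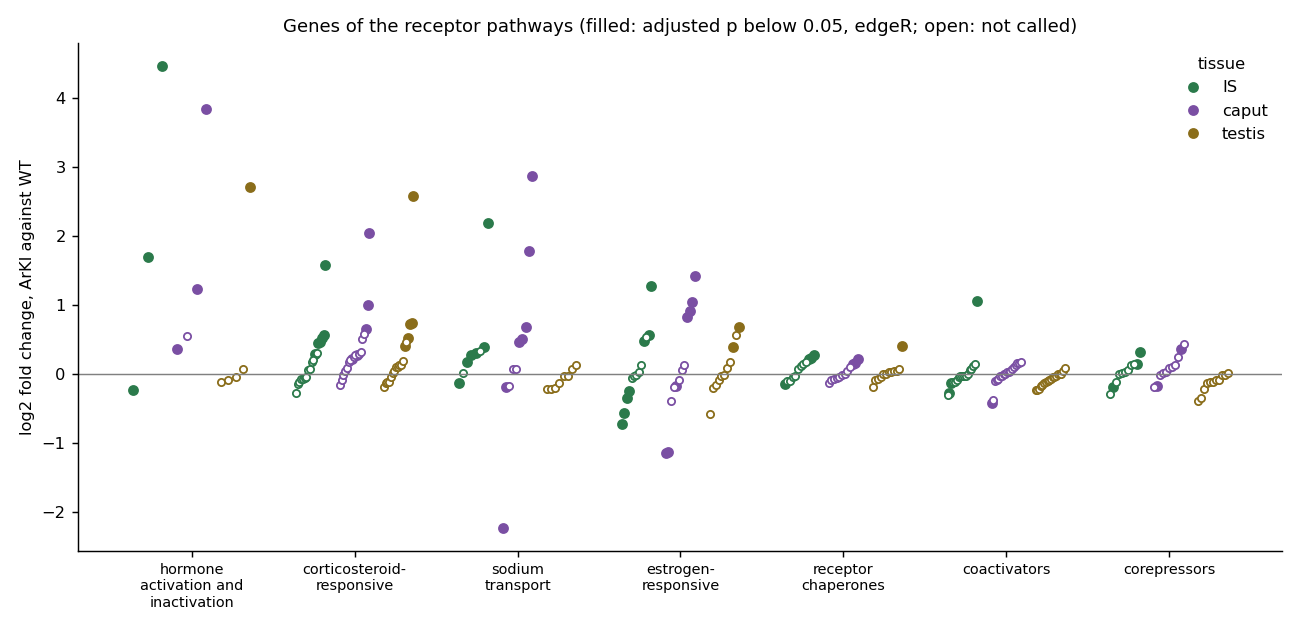
Log2 fold change of ArKI against WT (vertical axis) of the tested genes of 7 lists that act with or downstream of the receptors, coloured by tissue and filled where called by edgeR. The hormone enzymes hold the highest value, 4.46 for *Sult1e1* in the IS, the corticosteroid-responsive genes that were called all lie above 0, and the coactivators run from -0.43 to 1.05 among those called, both values being *Ppargc1a*.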

How the data were processed

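The authors sequenced RNA of IS, caput and testis, aligned it with STAR to mm10 and counted uniquely mapped reads per RefSeq gene. The submitters' processing notes name Subread 1.5.1 and bcl2fastq 1.8.4. The deposited values are raw counts per gene, neither normalized nor filtered. The labels name an unstranded kit and the methods a stranded one.

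Counts were analysed in R 4.3.3 with edgeR 4.0.16 (filterByExpr at its defaults, a count of 10 and a total of 15, TMM, robust quasi-likelihood test, Benjamini-Hochberg adjustment over all genes tested, threshold 0.05). Genotypes were compared within each tissue, segments in 1 fit of 20 epididymal samples, and tissues in 1 fit of 13 WT samples. Genes that the filter left out were tested by exact permutation of log2(CPM + 0.5). The tests were checked on simulated data. Gene positions and lengths came from GENCODE vM21 (GRCm38). Alternatives were RLE factors, library size only, DESeq2 1.42.0, limma 3.58.1 with voom, other filters, the replicate number as a block, other samples in the fit, the study's thresholds (an FDR of 0.01, or 0.2 in the testis, with a fold of 2) and leaving out single samples. Python 3.11.15, scipy 1.17.1 and matplotlib 3.10.9 were used.

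Total counts ranged from 4125768 to 21376604, and 3 counts correspond to 0.140 to 0.727 CPM. IS and caput pieces came from the same 5 mice of each genotype per the methods, but the sources used here do not tie pieces to mice, so segments were compared as if unpaired. P-values measure the spread between these samples. The receptors and the gene lists were chosen with earlier results of these data known. By the rule for naming, all receptors were named, and of each list up to 4 called genes per tissue, those with the smallest adjusted p, apart from items not reported here. *Sgk1*, *Per1*, *Hsd11b2* and the calls of *Cdkn1a* in the IS and *Zbtb16* in the testis were named after their values were seen. *Gper1* and *Sts* were not found by symbol.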

Additional observations from a re-analysis of the deposited data

Results flagged for a closer look

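One sample stood apart from its group. *Nr3c1* in WT caput replicate 3 was 39.9 CPM, the lowest of 5 samples, and the gap to the next sample was 0.754 of the whole range, above the 95% critical value of Dixon's test for 5 samples (0.71). Chance gives about 1 such sample in 20 groups, and 1 was found among the 20 groups tested. Without this sample the log2 fold change of *Nr3c1* in the caput was -0.14 (adjusted p = 0.16 by edgeR) in place of -0.08.

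The genotype difference of *Nr3c2* was less negative in the caput than in the IS by 0.49 on the log2 scale (adjusted p = 0.046 by edgeR's interaction test). The call was marginal, since it was lost in 19 of 27 alternatives, and 15.1% of 14329 genes were called by the same test. *Nr3c2* was lower in all 5 ArKI IS samples than in any WT IS sample, and overlapped between the genotypes in the caput. Genotypes without overlap were found for 20.2% of the genes tested in the IS fit and 19.9% of those in the caput fit. Overlap in only 1 segment does not by itself show that the segments differ.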

How the results depend on the processing

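The calls of *Nr3c2* and *Nr3c1* in the IS and of *Esr1* and *Esr2* in the caput remained under every alternative that kept the threshold of 0.05. Over the 31 receptor results and 561 alternatives, 526 kept direction and side of the threshold, 25 lost a call and 10 changed sign. Of those 25, 5 were *Esr1* in the IS, 19 the interaction of *Nr3c2* and 1 *Esr2* between the WT segments. For the 73 other gene results and 1340 alternatives the numbers were 1250, 85 and 5. The cause of these changes was not tested. Under the study's thresholds, which ask for a fold above 2, 0 receptors were called in the IS, 0 in the caput and 0 in the interaction, and 1 between the WT segments. Leaving out 1 sample at a time gave 1 to 2 receptors called between the WT segments and 0 to 1 in the interaction. The interaction call of *Nr3c2* was also lost (0 receptors called) with library size only, DESeq2, limma voom, a minimum of 1 count and the replicate block, where its adjusted p was 0.058. The replicate block changed no other receptor call. Same-numbered samples correlated between -0.15 and 0.19 in their deviations, so the numbers were not taken as pairs.

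Signs turned only in values that were not called. *Nr3c2* between testis and caput was -0.29 with library size only, there called, and -0.029 with a minimum of 1 count. *Esr2* in the IS was 0.026 without ArKI replicates 3 and 5, and *Aqp1* there was -0.18. Leaving out 1 sample gave from -0.057 to 0.26 for *Aqp1* in the IS, from -0.42 to 0.29 for *Slc9a3* in the IS, and from -0.043 to 0.16 for *Nr3c2* in the testis. For *Esr2* between the ArKI segments it gave from -0.19 to 0.12, and for the interaction of *Esr1* from -0.17 to 0.13. The order of the levels differed from that over the exon union in 2 places in the WT IS, 4 in the ArKI IS and 2 in the WT caput, over coding sequence and over longest transcript alike, and over coding sequence alone in 2 places in the ArKI caput and 2 in the WT testis. Of the 12 genes named for a similar pattern 5 remained with Spearman's rho, and 4 to 9 when 1 replicate number was left out, which removes 4 samples at a time. The sample numbers limit the testis most. *Pgr*, with at most 13 counts per sample, and testis *Esr2*, with 3 to 5, are so low that only large differences would be seen.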

Other observations

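*Esr1* in the ArKI IS had an SD of 15.3 CPM around a mean of 47.3, against 2.95 around 28.8 in the WT IS and 4.13 around 41.3 in the ArKI caput. The counts of called markers in this paragraph stand beside 29.6%, 27.7% and 1.96% of all genes called in IS, caput and testis. Fibroblast markers rose for 3 of 5 and fell for 1 of 5 in the ArKI IS, with *Col1a2* at 0.61 and *Pdgfra* at -0.23 on the log2 scale (adjusted p = 0.0028 and 0.0010 by edgeR). Leukocyte markers were called for 1 of 5 in the IS, 1 of 4 in the caput and 1 of 5 in the testis, clear or narrow cell markers for 1 of 4, 3 of 4 and 0 of 3, and genes listed as Sertoli cell markers for 3 of 3, 2 of 3 and 0 of 5. Among these *Sox9* was at 125 CPM in the WT IS and 52.2 in the WT caput but 23.4 in the WT testis, so it did not mark Sertoli cells here. Markers of caput principal cells were called for 1 of 4 in the IS, 3 of 5 in the caput and 1 of 5 in the testis, where the IS call was *Crisp1*, which had 1982 CPM in the WT IS and 360 in the WT caput and thus did not mark the caput, those of initial segment principal cells for 3 of 4 (all lower), 1 of 5 (higher) and 0 of 4, and those of sperm for 0 of 5 in the testis.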
